A study of Mus musculus with 6 samples.

Results

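The collagen gene family was described in fetal thymic stroma of mice with and without Jmjd6, a nuclear JmjC-domain enzyme that hydroxylates lysines. Members were chosen by symbol alone, as every entry named Col, a number, the letter a and a number, which gave 44 of 22513 genes. The symbol of each member stood alone in its entry. Col4a3bp, which encodes a ceramide transporter and no collagen, does not match the rule. The members were grouped by known structure into 11 fibrillar collagens, 6 basement membrane collagens, 9 FACITs (collagens that attach to fibrils) and 18 others, of which 6 were chains of type VI.

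Poly-A RNA was sequenced from thymic lobes of C57BL/6-background embryos that were kept in organ culture with 2-DG (2-deoxyguanosine, which depletes haematopoietic cells) for 4 days. The Jmjd6-/- lobes came from embryos that lack the gene in every cell and were bred from heterozygous parents, and the controls were wild type (WT). Lobes were then stimulated for 4 days with RANKL, the cytokine that drives medullary epithelial maturation, or left unstimulated. There was 1 unstimulated library per genotype and 2 RANKL libraries per genotype, which the study calls samples and the labels call technical duplicates. The spread between duplicates may thus be technical, and p-values between genotypes under RANKL measure only that spread. In tests that pool the genotypes or the conditions, the spread also holds any difference in RANKL response between genotypes.

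Collagens are secreted proteins in which chains built of repeated Gly-X-Y triplets wind into a triple helix. Fibrillar collagens such as types I, III and V assemble into the fibres that give connective tissue its strength and are made mainly by mesenchymal cells. Type IV collagen forms the sheet-like network of basement membranes under epithelia and around vessels, and type VI collagen forms beaded filaments at the border between cells and matrix. In the thymus, mesenchymal fibroblasts build the capsule and septa, and basement membranes line the epithelium and the vessels.

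The coding sequences set the fibrillar class apart without any expression value. The first 63 bases of the longest uninterrupted run of Gly-X-Y codons are shown for the most abundant member of the fibrillar, basement membrane and type VI groups, because the length of this run separates the fibrillar chains from all others. They were read 5′ to 3′ from the GENCODE M21 transcripts, and capitals mark the glycine codon (GGN) that opens each triplet. A glycine codon at the X or Y position stays in lower case.
Col3a1: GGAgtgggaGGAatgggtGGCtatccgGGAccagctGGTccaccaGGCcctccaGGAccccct
Col4a1: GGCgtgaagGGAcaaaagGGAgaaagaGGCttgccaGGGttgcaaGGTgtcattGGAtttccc
Col6a1: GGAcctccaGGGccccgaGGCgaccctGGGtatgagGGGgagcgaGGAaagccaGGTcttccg
In Col3a1 (type III, bases 490 to 552 of the coding sequence) this run went on for 344 triplets, in Col6a1 (bases 766 to 828) for 87 and in Col4a1 (bases 127 to 189) for 40. Over the 11 fibrillar chains the longest run was 216 to 344 triplets, with a median of 338. It was 39 to 66 triplets in the 6 basement membrane chains, whose helix is broken by interruptions, 32 to 113 in the 9 FACITs and 23 to 87 in the 18 others.

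Promoter windows are shown for the 3 fibrillar genes that differed between the genotypes and for the paired type IV genes, whose RANKL libraries all lay under the unstimulated library of their genotype. Each covers the 250 bases before and the first bases after the RefSeq start on GRCm38.p6, 300 in all, and reads 5′ to 3′ on the strand of the gene. Capitals mark the CCAAT box (CCAAT), the GC box (GGGCGG) and the TATA box (TATAAA), searched on both strands.
Col1a2, chr6:4505368-4505667, plus strand: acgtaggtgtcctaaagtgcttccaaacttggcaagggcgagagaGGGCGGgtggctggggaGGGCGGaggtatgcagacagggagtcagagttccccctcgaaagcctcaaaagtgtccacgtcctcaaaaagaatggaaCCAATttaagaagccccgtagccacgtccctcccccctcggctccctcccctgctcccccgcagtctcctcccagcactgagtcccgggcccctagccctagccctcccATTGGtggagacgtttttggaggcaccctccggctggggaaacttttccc
Col3a1, chr1:45311288-45311587, plus strand: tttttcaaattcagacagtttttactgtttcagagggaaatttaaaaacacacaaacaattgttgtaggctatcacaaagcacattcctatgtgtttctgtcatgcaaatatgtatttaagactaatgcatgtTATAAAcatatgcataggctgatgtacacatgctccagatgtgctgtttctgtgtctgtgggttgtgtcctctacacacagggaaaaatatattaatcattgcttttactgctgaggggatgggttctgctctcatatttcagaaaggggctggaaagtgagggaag
Col27a1, chr4:63215162-63215461, plus strand: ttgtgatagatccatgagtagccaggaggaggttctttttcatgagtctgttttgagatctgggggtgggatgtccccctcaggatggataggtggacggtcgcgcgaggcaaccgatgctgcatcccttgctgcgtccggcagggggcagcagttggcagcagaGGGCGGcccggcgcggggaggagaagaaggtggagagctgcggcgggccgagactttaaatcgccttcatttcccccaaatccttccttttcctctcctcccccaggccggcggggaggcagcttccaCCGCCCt
Col4a1, chr8:11312777-11313076, minus strand: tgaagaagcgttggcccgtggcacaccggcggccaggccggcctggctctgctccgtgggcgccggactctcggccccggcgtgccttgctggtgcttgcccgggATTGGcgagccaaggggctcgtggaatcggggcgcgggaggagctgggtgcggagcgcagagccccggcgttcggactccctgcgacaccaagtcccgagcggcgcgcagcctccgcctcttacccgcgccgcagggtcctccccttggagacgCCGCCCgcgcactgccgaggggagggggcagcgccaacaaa
Col4a2, chr8:11312555-11312854, plus strand: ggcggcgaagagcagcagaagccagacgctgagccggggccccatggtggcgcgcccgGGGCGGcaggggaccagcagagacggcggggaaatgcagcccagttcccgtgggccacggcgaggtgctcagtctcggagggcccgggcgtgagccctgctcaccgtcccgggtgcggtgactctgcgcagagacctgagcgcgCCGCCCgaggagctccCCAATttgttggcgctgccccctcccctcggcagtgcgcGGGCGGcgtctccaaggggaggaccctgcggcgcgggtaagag
The window of Col1a2 held 2 CCAAT boxes and 2 GC boxes, that of Col3a1 held 1 TATA box and none of the others, and that of Col27a1 held 2 GC boxes. Col4a1 and Col4a2 lie head to head on opposite strands. Their RefSeq starts are 21 bases apart, with that of Col4a2 inside the first bases of Col4a1, while their entries in the deposited table leave 2 bases between them. Of the windows, 78 bases are the same sequence read from opposite strands, motifs included. Windows were found for 35 of the 44 genes (38 windows). A GC box was in 60.5% of these 38 and in 35.6% of all 32817 windows of the same length, a CCAAT box in 34.2% and 37.4%, and a TATA box in 13.2% and 13.6%. A match is a stretch of letters and not a measured binding site.

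The deposited values were FPKM, a fragment count scaled by transcript length and by the mapped fragments of the library, so that genes can be compared. All 44 members were above 0 in each of the 6 libraries, with means from 0.0148 FPKM for Col4a4 to 185 FPKM for Col3a1. Of the members, 23 had a mean of at least 1 FPKM and 9 of at least 20 FPKM, and 40 passed the filter of the tests, a mean of at least 0.1 FPKM. Col4a3, Col4a4, Col8a1 and Col28a1 were under it. The collagens summed to 941 FPKM in unstimulated WT stroma, 922 and 933 in the WT RANKL libraries, 640 in unstimulated Jmjd6-/- stroma and 633 and 610 in the Jmjd6-/- RANKL libraries. These sums were between 0.113% and 0.184% of all FPKM. The 6 most abundant genes, Col3a1, Col4a1, Col4a2, Col1a2, Col6a1 and Col6a2, held between 72.6% and 77.5% of the collagen sum in every library.

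**Figure D1:**
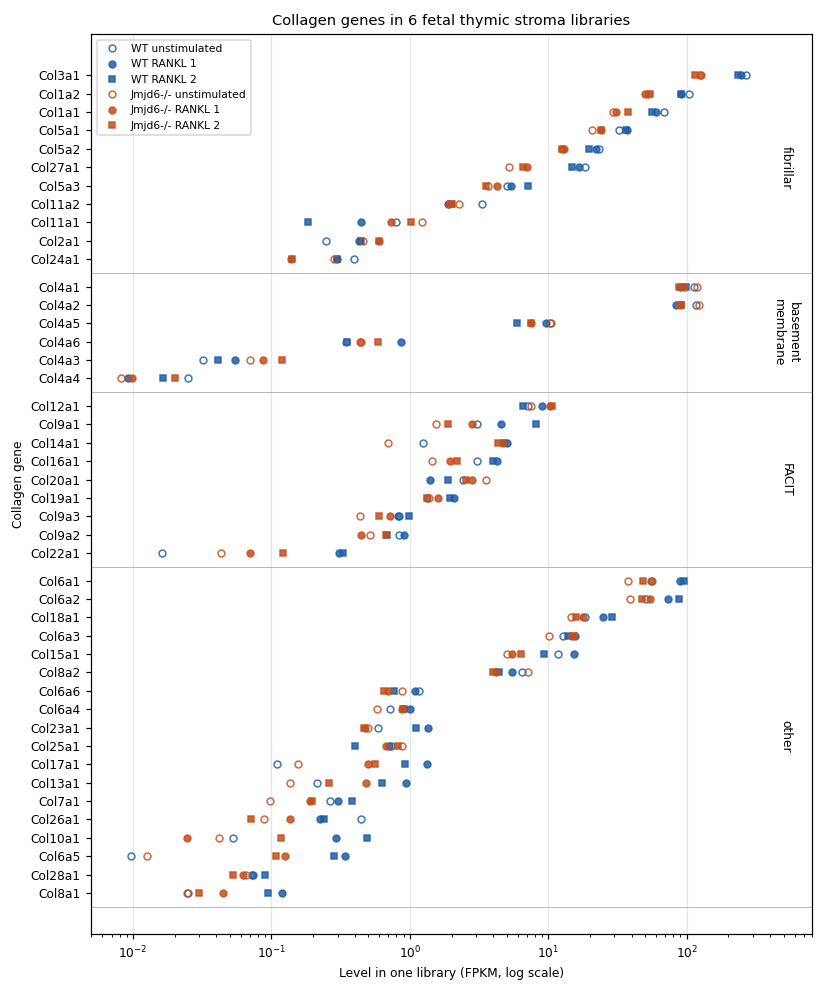
Level of each of the 44 collagen genes (FPKM, log scale) in the 6 libraries, by class and ordered by mean level. WT libraries are blue and Jmjd6-/- libraries orange, open symbols are unstimulated and filled symbols are RANKL replicates 1 (circles) and 2 (squares). The orange points of Col3a1, Col1a2, Col1a1, Col5a1, Col5a2 and Col27a1 all lie left of the blue ones, while those of Col4a1 and Col4a2 are mixed with them.

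Estimated depth was between about 15700000 and 31200000 fragments per library, and Jmjd6 stood at 26.3, 25.9 and 32.5 FPKM in the WT libraries and at 1.32, 1.96 and 1.78 FPKM in the Jmjd6-/- libraries. Aire was at 0.142 and 0.473 FPKM in the unstimulated WT and Jmjd6-/- libraries and between 67.1 and 79.7 FPKM in the 4 RANKL libraries, as the labels give the groups. The WT RANKL libraries were less alike (median absolute log2 difference of 0.28 over 12587 genes) than the Jmjd6-/- RANKL libraries (0.08). Over the fibrillar collagens these medians were 0.07 and 0.12, and over the 4 tested basement membrane collagens they were 0.41 and 0.06. In WT, replicate 1 minus 2 was -0.14 for Col4a1 and -0.12 for Col4a2 on the log2 scale. It was 0.68 for Col4a5 and 1.09 for Col4a6. Type IV collagen chains and the epithelial genes Epcam, Foxn1, Krt5, Krt8, Krt14 and Psmb11 were present in each library of this thymic stroma. So were the mesenchymal genes Pdgfra and Pdgfrb, and Cd3e of T cells was at or near 0. Of these 6 epithelial markers, 0 passed the threshold between genotypes under RANKL. An unadjusted p under 0.05 was found for 2 (2987 of all 15894 genes). These were Krt5 and Krt14, both higher in Jmjd6-/- stroma (log2 differences of 0.63, SE 0.22, and 1.05, SE 0.22). Myeloid genes were present, with Lyz2 between 285 and 346 FPKM and Cd68 between 25.2 and 40.4 FPKM, and none of the 3 tested haematopoietic markers passed the threshold between genotypes under RANKL (0 had an unadjusted p under 0.05).

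The first question was which collagen genes differed between Jmjd6-/- and WT stroma under RANKL. Fibrillar genes made up 3 of the 4 calls, and no basement membrane gene was among them. By limma with 2 libraries against 2, 4 of the 40 tested members were lower in Jmjd6-/- stroma (1.82% of all 15894 genes tested were lower) and 0 were higher (0.516% of all genes). The 4 were the fibrillar genes Col3a1, Col1a2 and Col27a1 and the type VI gene Col6a1. An unadjusted p under 0.05 was found for 20 of the 40, against 2987 of all 15894 genes. The median log2 difference was -0.64 over the tested collagens and 0.01 over all genes. By class it was -0.71 for the fibrillar collagens, -0.02 for the basement membrane collagens, -0.44 for the FACITs and -0.69 for the others. As these are bulk samples, fewer cells of a type and less RNA per cell cannot be told apart. Over 18 alternatives, the calls of Col3a1, Col1a2, Col27a1 and Col6a1 held in 13, 12, 14 and 10. Among these, the fit of the RANKL libraries alone and the fits without an unstimulated library could hardly change the calls. The unstimulated libraries have no replicate and add nothing to the spread of this comparison. The count rests on single libraries: with either Jmjd6-/- RANKL library left out, 0 members were called, and without WT RANKL replicate 1 the count was 11 lower and 2 higher, the lone library being assumed to vary like the other groups.

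Col3a1 (chr1:45311538-45349706 on mm10, plus strand) encodes the chain of type III collagen, which is abundant in distensible tissues and lymphoid organs. It was at 244.7 and 235.1 FPKM in the WT RANKL libraries, 124.9 and 115.2 FPKM in the Jmjd6-/- RANKL libraries, and 265.8 and 126.5 FPKM in the unstimulated WT and Jmjd6-/- libraries. Each Jmjd6-/- value was about the same, and each lay well under every WT value. The log2 difference under RANKL was -0.999 (SE 0.11, adjusted p = 0.028), a mean of 120.0 ± 6.9 FPKM in Jmjd6-/- against 239.9 ± 6.8 FPKM in WT stroma (SD, n = 2).

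Col1a1 (chr11:94936270-94951856, plus strand) and Col1a2 (chr6:4505697-4541543, plus strand) encode the alpha 1 and alpha 2 chains of type I collagen, the main fibre of skin, tendon and bone. Col1a2 was at 90.4 and 90.5 FPKM in the WT RANKL libraries, 50.0 and 54.2 FPKM in the Jmjd6-/- RANKL libraries, and 104.3 and 52.5 FPKM in the unstimulated WT and Jmjd6-/- libraries. The genotypes did not overlap, and the log2 difference under RANKL was -0.80 (SE 0.11, adjusted p = 0.035). Col1a1 was at 60.2 and 55.8 FPKM in the WT RANKL libraries, 30.9 and 37.6 FPKM in the Jmjd6-/- RANKL libraries, and 68.1 and 29.4 FPKM in the unstimulated WT and Jmjd6-/- libraries. It did not overlap between the genotypes either, but its log2 difference of -0.77 (SE 0.14) had an adjusted p of 0.059. The ratio of Col1a1 to Col1a2, chains of one protein, stayed between 0.56 and 0.69 in all 6 libraries.

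Col27a1 (chr4:63215412-63334990, plus strand), a fibrillar collagen known from cartilage, was at 16.7 and 14.8 FPKM in the WT RANKL libraries, 7.07 and 6.51 FPKM in the Jmjd6-/- RANKL libraries, and 18.3 and 5.16 FPKM in the unstimulated WT and Jmjd6-/- libraries. It had the widest separation of the called fibrillar genes, with a log2 difference of -1.20 under RANKL (SE 0.14, adjusted p = 0.028). Col5a1 (chr2:27886425-28039510, plus strand) encodes the alpha 1 chain of type V collagen, which starts fibril assembly. It was at 36.9 and 36.6 FPKM in the WT RANKL libraries, 23.9 and 23.9 FPKM in the Jmjd6-/- RANKL libraries, and 32.3 and 20.5 FPKM in the unstimulated WT and Jmjd6-/- libraries. All 3 Jmjd6-/- values lay under all 3 WT values, with a log2 difference under RANKL of -0.62 (SE 0.10) and an adjusted p of 0.054. Col5a2 (chr1:45374331-45503282, minus strand), which was named after its values were seen, encodes the alpha 2 chain and lies 24624 bases from Col3a1, on the other strand. Its log2 difference was -0.71 (SE 0.12, adjusted p = 0.057).

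The remaining 5 fibrillar genes had means from 0.259 to 4.82 FPKM, and none passed the threshold. Among them, Col5a3 and Col24a1 were lower in all 3 Jmjd6-/- libraries than in all 3 WT libraries. Col2a1, Col11a1 and Col11a2, the chains of cartilage fibrils, had log2 differences under RANKL of 0.38 (SE 0.27), 1.30 (SE 0.40) and 0.04 (SE 0.19). Summed over the 11 fibrillar genes, the level was 479 and 463 FPKM in the WT RANKL libraries and 257.4 and 257.3 FPKM in the Jmjd6-/- RANKL libraries, or 54.6% of WT. An exact permutation test of 2 libraries against 2 cannot give a two-sided p below 0.333.

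The main basement membrane chains did not follow the fibrillar genes. Col4a1 (chr8:11198423-11312826, minus strand) and Col4a2 (chr8:11312829-11449287, plus strand) encode the chains of the type IV collagen found in nearly every basement membrane. Col4a1 was at 88.9 and 98.0 FPKM in the WT RANKL libraries, 94.8 and 88.2 FPKM in the Jmjd6-/- RANKL libraries, and 112.9 and 118.0 FPKM in the unstimulated WT and Jmjd6-/- libraries. The genotypes overlapped, with a log2 difference under RANKL of -0.03 and a 95% interval from -0.31 to 0.26 (adjusted p = 0.92). Col4a2 was at 83.4 and 90.6 FPKM in the WT RANKL libraries, 89.8 and 90.3 FPKM in the Jmjd6-/- RANKL libraries, and 116.3 and 122.1 FPKM in the unstimulated WT and Jmjd6-/- libraries. Its log2 difference was 0.05, with a 95% interval from -0.22 to 0.32 (adjusted p = 0.85). The 95% intervals of Col3a1 (-1.28 to -0.72) and Col1a2 (-1.06 to -0.53) do not reach those of Col4a1 and Col4a2. The ratio of Col4a1 to Col4a2 stayed between 0.97 and 1.08. The other tested chains were Col4a5, with 9.59 and 5.93 FPKM in the WT RANKL libraries, and Col4a6, and neither was past the threshold.

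The ratio of summed fibrillar to summed basement membrane FPKM gives the balance of the 2 classes within a library, free of its scaling. It was 2.62 and 2.37 in the WT RANKL libraries, 1.34 and 1.38 in the Jmjd6-/- RANKL libraries, and 2.18 and 1.01 in the unstimulated WT and Jmjd6-/- libraries. Every WT library had the higher ratio. A ratio within a library shows unequal change and not that either class was constant.

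**Figure D2:**
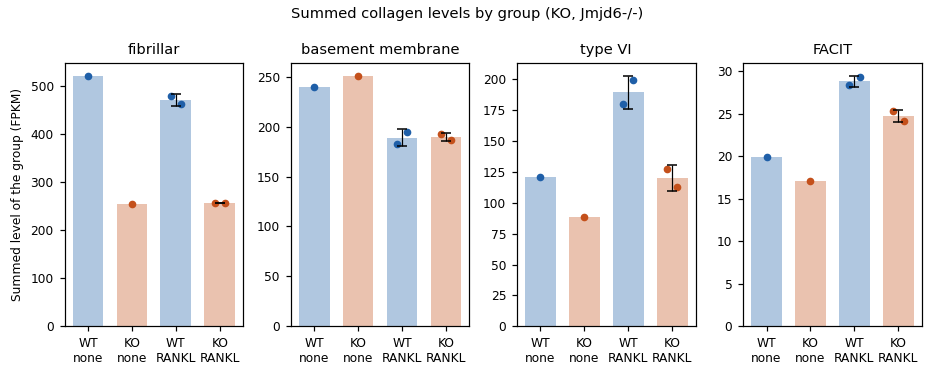
Summed FPKM of the fibrillar, basement membrane, type VI and FACIT collagens in each group, with a point per library, bars at the mean and error bars of 1 SD for groups of 2 (KO stands for Jmjd6-/- and none for unstimulated). The fibrillar sum of Jmjd6-/- stroma lies between 255 and 257.4 FPKM against 463 to 522 FPKM in WT stroma, while the basement membrane sums of the RANKL libraries lie between 183 and 195 FPKM in both genotypes.

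Type VI collagen differed between its chains. Col6a1 (chr10:76708792-76726044) and Col6a2 (chr10:76595756-76623404), which lie 85387 bases apart on the minus strand, encode the alpha 1 and alpha 2 chains. Col6a1 was at 88.8 and 95.1 FPKM in the WT RANKL libraries, 56.5 and 48.1 FPKM in the Jmjd6-/- RANKL libraries, and 54.8 and 37.9 FPKM in the unstimulated WT and Jmjd6-/- libraries. The RANKL libraries of the genotypes did not overlap, and the log2 difference was -0.82 (SE 0.13, adjusted p = 0.045). Col6a2 was at 73.3 and 88.2 FPKM in the WT RANKL libraries, 54.7 and 47.6 FPKM in the Jmjd6-/- RANKL libraries, and 51.1 and 39.1 FPKM in the unstimulated WT and Jmjd6-/- libraries, with a log2 difference of -0.66 (SE 0.14) and an adjusted p of 0.082. Col6a3, the alpha 3 chain of the same filament, which was named after its values were seen, was at 15.5 and 13.8 FPKM in the WT and 14.7 and 15.3 FPKM in the Jmjd6-/- RANKL libraries, a log2 difference of 0.04 with a 95% interval from -0.28 to 0.37. The ratio of Col6a3 to Col6a1 was thus 0.17 and 0.14 in the WT and 0.26 and 0.32 in the Jmjd6-/- RANKL libraries.

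Of the other classes, Col18a1 (chr10:77052179-77166530, minus strand) encodes a proteoglycan of basement membrane zones from which endostatin is cut. It was at 24.9 and 28.7 FPKM in the WT RANKL libraries, 17.9 and 15.8 FPKM in the Jmjd6-/- RANKL libraries, and 18.4 and 14.5 FPKM in the unstimulated WT and Jmjd6-/- libraries. Its log2 difference under RANKL was -0.66 (SE 0.14, adjusted p = 0.075). None of the 9 FACITs and 2 multiplexins passed the threshold. FACIT differences ran from -1.37 for Col9a1 to 0.69 for Col20a1, and their summed level in Jmjd6-/- RANKL stroma was 85.8% of that in WT. The values of Col10a1 and Col9a3 are uncertain, since their entries run 107812 and 20502 bases beyond the gene.

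Both Jmjd6-/- RANKL libraries lay under both WT RANKL libraries for 29 of the 40 tested members (26.2% of all genes) and above them for 4 (24.5% of all genes). All 3 Jmjd6-/- libraries lay under all 3 WT libraries for 17 members (9.14% of all genes), 8 of them fibrillar, and above them for 2 (9.14% of all genes), Col2a1 and Col20a1. In an alternative chosen after seeing the data, with genotype fitted over all 6 libraries and RANKL as a term, 11 members were lower (3.38% of all genes) and 0 were higher (2.05% of all genes). The 11 were Col3a1, Col1a2, Col1a1, Col27a1, Col5a1 and Col5a2 of the fibrillar class, the FACIT Col16a1, and Col6a1, Col6a2, Col18a1 and Col15a1. Col3a1 had a log2 difference of -1.02 in that fit (adjusted p = 0.0034). The median over the tested collagens was -0.56 there.

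**Figure D3:**
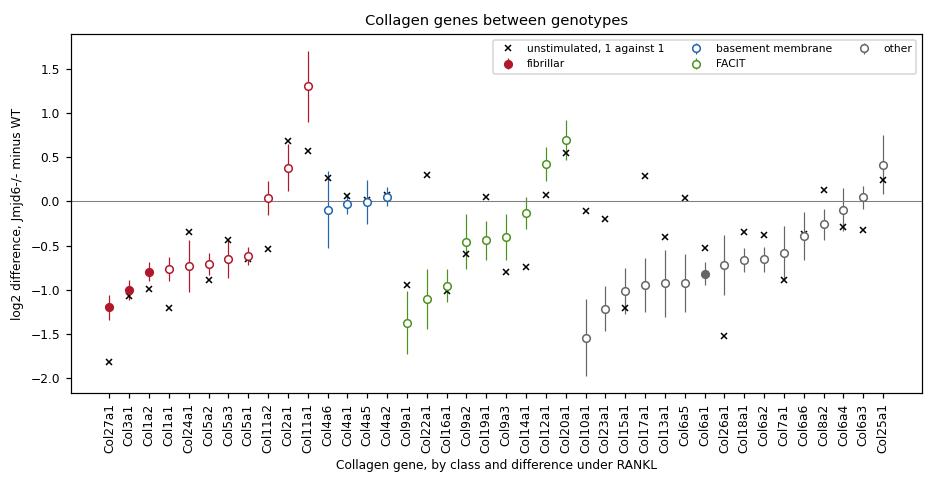
Log2 difference between Jmjd6-/- and WT stroma for the 40 tested collagen genes, by class. Circles with bars of 1 SE are the RANKL libraries (2 against 2, filled where the adjusted p is under 0.05), and crosses are the unstimulated libraries (1 against 1). Col27a1, Col3a1 and Col1a2 lie at -1.20, -0.999 and -0.80, and Col4a1 and Col4a2 lie at -0.03 and 0.05.

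The unstimulated libraries, 1 per genotype, show the same genes without RANKL and carry no replicate check. In them 6 of the 40 members were lower in Jmjd6-/- stroma by at least 1 on the log2 scale (3.45% of all genes) and 0 were higher by as much (2.99% of all genes). The 6 were Col27a1 (-1.81), Col26a1 (-1.52), Col1a1 (-1.21), Col15a1 (-1.20), Col3a1 (-1.07) and Col16a1 (-1.01). Summed fibrillar FPKM was 522 in WT and 255 in Jmjd6-/- stroma, or 48.8% of WT. The basement membrane sum was 240 in WT and 251 in Jmjd6-/- stroma.

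The second question was which collagen genes changed with RANKL. With 4 RANKL libraries against 2 unstimulated ones and genotype as a term, 5 of the 40 members rose (10.5% of all genes) and 1 fell (4.11% of all genes), so both counts are near the share of all genes. The median log2 change was -0.07 for the fibrillar collagens, -0.38 for the basement membrane collagens, 0.32 for the FACITs, 0.43 for the others and -0.02 over all genes. No fibrillar gene passed the threshold, and 2 of 11 had an unadjusted p under 0.05 (4722 of all 15894 genes). The counts rest on single libraries: without the unstimulated WT library 1 member rose and 0 fell, without the unstimulated Jmjd6-/- library 2 rose and 0 fell, without Jmjd6-/- RANKL replicate 1 or 2 the numbers were 2 and 3 risen and 0 fallen, and without WT RANKL replicate 1 or 2 they were 4 and 7 risen and 4 and 3 fallen.

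Col14a1 (chr15:55307750-55520803, plus strand), a FACIT that binds the surface of fibrils, had the largest rise. It was at 1.24 FPKM in unstimulated and 5.03 and 4.82 FPKM in RANKL-stimulated WT stroma, and at 0.697 FPKM in unstimulated and 4.68 and 4.31 FPKM in RANKL-stimulated Jmjd6-/- stroma. All 4 RANKL values lay above both unstimulated ones. The log2 change was 2.22 (SE 0.19, adjusted p = 0.00066), and it passed the threshold in all 16 alternatives. Col6a1 rose by 0.60 (SE 0.11, adjusted p = 0.014) and Col6a2 by 0.52 (SE 0.12, adjusted p = 0.033) on the log2 scale, from the values above, and these calls held in 12 and 10 of the 16 alternatives.

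A further 2 members rose from means under 1 FPKM and were named after their values were seen. Col17a1 encodes a transmembrane collagen of hemidesmosomes, which anchor basal epithelial cells. It was at 0.109 FPKM in unstimulated and 1.34 and 0.917 FPKM in RANKL-stimulated WT stroma, and at 0.155 FPKM in unstimulated and 0.500 and 0.556 FPKM in RANKL-stimulated Jmjd6-/- stroma. The log2 change was 1.91 (SE 0.35, adjusted p = 0.014). Col6a5, another chain of type VI, was under 0.02 FPKM in both unstimulated libraries and between 0.108 and 0.339 FPKM in the RANKL libraries (log2 change 1.42, SE 0.36, adjusted p = 0.045). Its change depends on the constant of 0.1 added to FPKM.

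Col4a2 was the gene that fell, by 0.43 on the log2 scale (SE 0.08, adjusted p = 0.013), a call that held in 11 of 16 alternatives. Col4a1, its partner, had a log2 change of -0.32 (SE 0.09, adjusted p = 0.051). In both genotypes, the unstimulated library was above both RANKL libraries for both genes. The basement membrane sum was 240 and 251 FPKM in the unstimulated and 183 to 195 FPKM in the RANKL libraries. Of 6 endothelial markers, 4 also fell with RANKL (4.11% of all genes), and their sum was 24.1 FPKM in unstimulated against 13.3 and 13.2 FPKM in RANKL-stimulated WT stroma, and 8.76 against 4.81 and 4.20 FPKM in Jmjd6-/- stroma. Their part in the change of type IV collagen was not tested. Type VI collagen went from 121 FPKM unstimulated to 180.0 and 199 FPKM in WT, and from 88.6 to 128 and 113 FPKM in Jmjd6-/- stroma.

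Whether the response to RANKL differed between genotypes was tested as an interaction. By limma, 0 of the 40 members passed the threshold and 0 of all genes did (0.0% of all genes), and 0 members and 664 of all genes had an unadjusted p under 0.05. Col14a1 changed by 1.91 in WT and by 2.53 in Jmjd6-/- stroma on the log2 scale, a difference of 0.61 with a 95% interval from -0.18 to 1.40. Col6a1 changed by 0.74 and 0.46, a difference of -0.29 with a 95% interval from -0.83 to 0.26. With 1 unstimulated library per genotype, these intervals include differences as large as the change of Col6a1 itself.

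**Figure D4:**
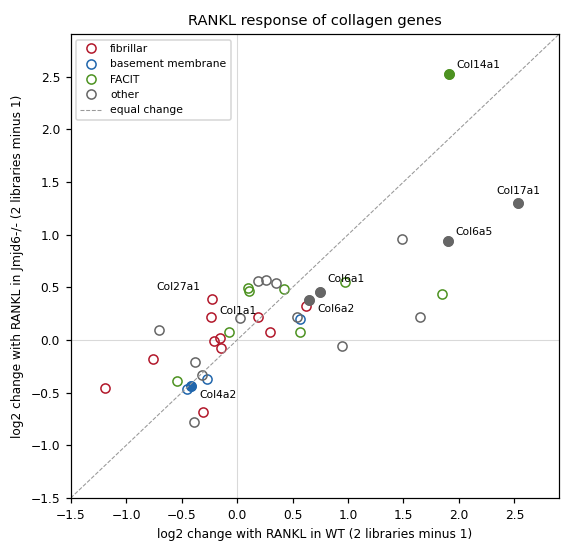
Log2 change with RANKL in WT stroma (x axis) against that in Jmjd6-/- stroma (y axis) for the 40 tested collagen genes, each the mean of 2 RANKL libraries minus 1 unstimulated library, coloured by class. Filled points passed the test of RANKL over both genotypes, and the dashed line marks an equal change. Col14a1 lies at 1.91 and 2.53, Col17a1 at 2.53 and 1.30, and Col4a2 at -0.42 and -0.44.

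Collagen chains are modified, folded, trimmed and cross-linked by a set of other proteins, which was described by lists chosen for their known function. Of 19 tested genes for modification and folding, 1 was lower in Jmjd6-/- stroma under RANKL (1.82% of all genes) and 0 were higher (0.516%). It was Fkbp10, an endoplasmic reticulum prolyl isomerase that assists procollagen folding, at 11.4 and 12.04 FPKM in WT and 5.00 and 5.07 FPKM in Jmjd6-/- RANKL libraries (log2 difference -1.20, SE 0.14, adjusted p = 0.028). The lysyl hydroxylases of collagen did not pass the threshold. Plod1 had a log2 difference of -0.35 (SE 0.16), Plod2 of -0.69 (SE 0.22) and Plod3 of -0.03 (SE 0.12), with adjusted p of 0.32, 0.19 and 0.94. P4ha1, a prolyl 4-hydroxylase subunit, had -0.47 (SE 0.12, adjusted p = 0.12) and Serpinh1, the collagen chaperone HSP47, had -0.33 (SE 0.14, adjusted p = 0.31). With RANKL, 1 gene of this list rose (10.5% of all genes) and 1 fell (4.11%). The one that rose was P4ha2, another prolyl 4-hydroxylase subunit, by 0.86 (SE 0.20, adjusted p = 0.033) on the log2 scale. Its change was 1.26 in WT and 0.45 in Jmjd6-/- stroma.

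Of 11 tested genes for processing and cross-linking, 1 was lower in Jmjd6-/- stroma under RANKL (1.82% of all genes) and 0 were higher (0.516%). Pcolce encodes an enhancer of the protease that trims fibrillar procollagen ends. It was at 33.8 and 36.7 FPKM in the WT RANKL libraries, 14.5 and 15.2 FPKM in the Jmjd6-/- RANKL libraries, and 29.1 and 14.1 FPKM in the unstimulated WT and Jmjd6-/- libraries. All Jmjd6-/- values lay under all WT values, as for Col3a1 (log2 difference -1.24, SE 0.12, adjusted p = 0.028). With RANKL, 2 genes of this list rose (10.5% of all genes) and 2 fell (4.11%). Lox, the cross-linking lysyl oxidase, fell by 0.98 (SE 0.13, adjusted p = 0.0036) on the log2 scale and Pcolce2 by 0.61 (SE 0.14, adjusted p = 0.035).

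Of 12 degradation genes and inhibitors, 5 rose with RANKL (10.5% of all genes) and 0 fell (4.11%). Among them were Mmp13, a collagenase, at 1.55 FPKM unstimulated and 8.42 and 21.1 FPKM with RANKL in WT stroma (log2 change 2.58, SE 0.38, adjusted p = 0.0060), Mmp9, a gelatinase (1.56, SE 0.15, adjusted p = 0.0013), and Timp1, their inhibitor (2.09, SE 0.34, adjusted p = 0.0093). Mmp9 was lower in Jmjd6-/- stroma under RANKL, at 23.7 and 24.7 FPKM against 48.3 and 54.1 FPKM (log2 difference -1.08, SE 0.12, adjusted p = 0.028). Its log2 change with RANKL was 1.89 in WT and 1.23 in Jmjd6-/- stroma.

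Of 10 proteoglycans and glycoproteins that bind fibrils, 1 was lower in Jmjd6-/- stroma under RANKL (1.82% of all genes). This was Ogn (osteoglycin), at 3.20 and 3.22 FPKM in WT and 0.764 and 0.676 FPKM in Jmjd6-/- RANKL libraries (log2 difference -2.02, SE 0.20, adjusted p = 0.028). With RANKL, 2 genes of this list rose (10.5% of all genes) and 1 fell (4.11%). Kera (keratocan) rose by 2.15 (SE 0.28, adjusted p = 0.0036), Dcn (decorin) by 1.01 (SE 0.21, adjusted p = 0.021) and Ogn fell by 0.94 (SE 0.20, adjusted p = 0.023) on the log2 scale. Of 14 tested basement membrane partners, 0 passed the threshold between genotypes under RANKL. An unadjusted p under 0.05 was found for 6 (2987 of all 15894 genes). Their log2 differences ran from -1.15 to 0.59 with a median of -0.32, and 11 of the 14 were below 0 (7657 of all 15894 genes). With genotype fitted over all 6 libraries, 2 were lower (3.38% of all genes) and 1 was higher (2.05%). With RANKL, 2 partners fell (4.11% of all genes), the laminin chains Lamb1 (-0.62, SE 0.11, adjusted p = 0.014) and Lamb3 (-0.64, SE 0.10, adjusted p = 0.0065). Of 9 tested collagen receptors, 0 passed the threshold in either comparison. In each, 2 had an unadjusted p under 0.05 (2987 of all 15894 genes between genotypes, 4722 with RANKL). With genotype fitted over all 6 libraries, 2 receptors were lower (3.38% of all genes) and 0 were higher (2.05%). In that fit, 4 of the 10 fibril-binding genes were lower and 1 was higher (Fn1). Of the modification, processing and degradation lists, 2, 2 and 1 genes were lower there and 0 were higher.

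Markers of the cells that make collagen were set beside these differences. Of 8 mesenchyme markers, 0 passed the threshold between genotypes under RANKL. An unadjusted p under 0.05 was found for 4 of the 8 (2987 of all 15894 genes). Their log2 differences were all below 0, with a median of -0.51. In the fit of genotype over all 6 libraries, 2 were lower (3.38% of all genes) and 0 were higher (2.05%). There, 7 of the 8 markers had an unadjusted p under 0.05 (3506 of all 15894 genes) and the median was -0.55. Their summed level was 89.6 and 80.0 FPKM in WT and 59.1 and 53.9 FPKM in Jmjd6-/- RANKL libraries, and 80.0 and 53.9 FPKM in the unstimulated WT and Jmjd6-/- libraries. All 3 Jmjd6-/- sums lay under all 3 WT sums. No mesenchyme marker was at 0. Of 6 endothelial markers, 3 were lower in Jmjd6-/- stroma under RANKL (1.82% of all genes), and their sum was 13.3 and 13.2 FPKM in WT and 4.81 and 4.20 FPKM in Jmjd6-/- RANKL libraries. Of 4 tested bone markers, 2 were lower (1.82% of all genes). The bone sums were 8.59 and 7.53 FPKM in WT and 1.87 and 1.79 FPKM in Jmjd6-/- RANKL libraries, but 1.65 and 1.499 FPKM in the unstimulated WT and Jmjd6-/- libraries. Alpl alone gave 7.24 and 5.86 FPKM of the WT RANKL sums, and Sp7 was listed at 0 in the 3 Jmjd6-/- libraries and the unstimulated WT library. Of 6 markers of pericytes and smooth muscle, 1 was higher (Tagln, 0.516% of all genes) and 0 were lower (1.82%). An unadjusted p under 0.05 was found for 4 (2987 of all 15894 genes), which went both ways. Tagln and Acta2 were higher (log2 differences of 1.22 and 1.35). Myh11 and Des were lower (-0.66 and -2.14), with Des at a mean of 0.384 FPKM. Of 4 tested cartilage markers 0 were called and 3 had an unadjusted p under 0.05 (2987 of all 15894 genes). The defining cartilage gene Acan was at or near 0 in all libraries. In the fit of genotype over all 6 libraries, 4 endothelial markers were lower (3.38% of all genes) and 0 were higher (2.05%). Tagln and Acta2 were the 2 pericyte and smooth muscle markers called there, both higher. Krt14 alone of the epithelial markers was called, also higher. No bone, cartilage or haematopoietic marker was called in that fit. The part of any of these cells in the collagen differences was not tested.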

How the data were processed

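Libraries were made by the study from poly-A RNA with a TruSeq RNA kit and sequenced paired-end. The authors mapped filtered reads to mm10 with TopHat2 2.0.10 and computed FPKM per gene with Cufflinks 2.1.1, correcting for multi-mapped reads and setting a stranded library type, although no described step of the library preparation keeps strand. Values of genes that overlap on opposite strands may therefore be mixed. The deposited FPKM, which hold no counts, were used without rescaling, and 0 further columns of values were left out. Groups came from the sample labels, whose treatment field gives RANKL for all samples while titles and stimulation fields separate the unstimulated ones.

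Differences were tested with limma 3.58.1 in R 4.3.3 on log2(FPKM + 0.1) in the 15894 genes whose mean reached 0.1 FPKM. A trend of variance on level was fitted, and p-values were adjusted by Benjamini-Hochberg over all of these genes, with a threshold of 0.05. Fold changes on this scale understate those of low genes. RANKL was tested with genotype as a term, genotype and the interaction in a model of the 4 conditions. The fits were tested on simulated data. Depth was estimated from steps between values under 0.15 FPKM and is approximate. Counting error limits low genes, such as Col4a4.

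Members and lists were chosen with earlier results of these data known. Values in every library were given for members whose mean reached 20 FPKM, or 1 FPKM if past the threshold. Of the other lists, up to 3 called genes per direction whose mean reached 1 FPKM were named, with Plod1, Plod2, Plod3, P4ha1 and Serpinh1. Alternatives were constants of 1 and 0.01, no filter, a filter at 1 FPKM, no trend, 2 other scalings, removal of the GC and length trend, fits without each library, the RANKL libraries alone, and the replicate number as a block. A genotype term over all 6 libraries and a fit without filter that leaves out genes at 0 throughout were added after seeing the data.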

Additional observations from a re-analysis of the deposited data

Results flagged for a closer look

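In 3 fibrillar genes whose mean reached 1 FPKM, both WT RANKL libraries lay under the unstimulated WT library while both Jmjd6-/- RANKL libraries lay above the unstimulated Jmjd6-/- library. The log2 change with RANKL in Jmjd6-/- minus that in WT stroma was 0.61 for Col27a1 (95% interval from -0.00079 to 1.23), 0.45 for Col1a1 (-0.15 to 1.04) and 0.18 for Col5a2 (-0.37 to 0.72). By limma's interaction test, each had an adjusted p of 1.00. Each of these changes is taken against a single unstimulated library per genotype.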

How the results depend on the processing

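By limma at an adjusted p under 0.05, members that rose with RANKL numbered 5 with the settings of the report, 2 without a filter on low values, 3 with a filter at a mean of 1 FPKM and 11 with the GC content and length trend removed. Members that fell numbered 1, but 2 with a constant of 0.01, 0 without the mean-variance trend and 2 with equal column totals. Members lower in Jmjd6-/- stroma under RANKL numbered 4, but 0 without a filter, 0 without a filter when genes at 0 in all libraries were left out, 2 without the trend, 11 with the GC content and length trend removed and 11 with genotype fitted over all 6 libraries. With single libraries left out, the ranges were 1 to 7 risen and 0 to 4 fallen with RANKL, and 0 to 11 lower and 0 to 2 higher between genotypes. The causes of these shifts were not tested. The replicate number as a block (replicate block) gave 14 lower and 1 higher between genotypes, and 5 risen and 1 fallen with RANKL. The differences between replicates 1 and 2 had a correlation of -0.04 between the genotypes over 15894 genes. No deviation shared by replicate number was thus visible, but this cannot show whether the libraries were paired. The interaction gave 0 members in each alternative that could be fitted. Without either unstimulated library, it could not be fitted. Summed fibrillar FPKM of Jmjd6-/- RANKL stroma was 54.6% of WT, 54.0% with equal totals, 53.6% with median-ratio scaling and between 53.7% and 55.6% with single libraries left out. Of the single-gene values, 452 kept direction and side of the threshold, 38 lost the call, 23 gained one, and 15 changed sign, in each case a value that passed the threshold neither before nor after. With the GC content and length trend removed, the log2 change with RANKL was 0.0074 for Col3a1 and 0.085 for Col1a1, the genotype difference of Col4a2 was -0.026, and the interaction was -0.0021 for Col3a1 and -0.097 for Col5a1. The RANKL change of Col1a1 was 0.026 with median-ratio scaling, and the genotype difference of Col4a1 was 0.0018 over all 6 libraries. With single libraries left out, the RANKL change ran from -0.23 to 0.21 for Col1a1 and from -0.22 to 0.39 for Col27a1, the genotype difference from -0.100 to 0.041 for Col4a1 and from -0.0081 to 0.11 for Col4a2, and the interaction from -0.079 to 0.041 for Col4a2.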
